A study of Mus musculus with 6 samples.

Results

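Among the mouse cells compared here, 71 microarray probes of 69 genes gave a detected signal only in Nanog-induced primordial germ cell-like cells (Nanog PGCLCs). They were chosen by a rule that read the data. A probe had to carry 1 gene symbol, to have a detection p-value below 0.01 on both Nanog PGCLC arrays and of at least 0.01 on the other 4 arrays, and to have a mean log2 value in the authors' deposited table that was at least 0.2 above each of the other group means. That last distance, to the nearer of the other groups, is called the margin. The series measured 45281 probes, of which 10057 in the deposited table carry 1 symbol, for 7312 genes. On both Nanog PGCLC arrays 8264 named probes were detected, 140 of these on no other array, and 75 of the 140 had the margin. The rule then leaves out some symbols in advance, which removed Bhlhe40, Slc11a1, Slc12a8 and Slc45a4. The same limits, applied with the groups exchanged, gave 83 probes of 77 genes for cytokine-induced PGCLCs and 118 probes of 111 genes for embryonic stem cells.

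The study hybridised total RNA to Illumina bead arrays, with 2 arrays in each of 3 groups. Nanog PGCLCs were taken at day 4 after epiblast-like cells had been moved into GK15 medium with doxycycline at 0.7 µg/ml, which switches on a Nanog transgene. Cytokine PGCLCs, also of day 4, were made in the same basal medium with LIF (1000 U/ml), the BMP ligands BMP4 (500 ng/ml) and BMP8A (500 ng/ml), and the growth factors EGF (50 ng/ml) and SCF (100 ng/ml). The mouse embryonic stem cells (mESCs) from which such cultures start were kept in N2B27 medium with CHIR99021 at 3 µM, PD0325901 at 1 µM and LIF at 1000 U/ml. All groups, the mESCs included, are male, of strain 129 x MF1, and carry the Nanog transgene. The labels do not say whether the cells come from 1 clone, whether PGCLCs were sorted, or whether the replicates are separate cultures, so the p-values below rest on array-to-array spread alone, and that spread may be technical. The groups differ in several agents at once, so the part of any single agent cannot be told apart.

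Primordial germ cells are the precursors of eggs and sperm, and in the mouse they arise from the epiblast under BMP signals from neighbouring tissue. In culture, naive stem cells are first turned into epiblast-like cells, and these respond to cytokines, or to forced expression of the homeodomain factor Nanog, by switching on germ cell genes. A detection call on a bead array states whether a probe is brighter than negative control probes on that array, so a call that is missing is not proof that the transcript is missing.

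Between 8788 and 10028 probes were detected per array, and the fewest were on the mESC arrays. The member probes were dim. Their median level was 7.25 in Nanog PGCLCs, 6.47 in cytokine PGCLCs and 6.16 in mESCs, as log2 intensity after background correction and quantile normalization, and 20.8% of all probes kept for testing lay below the first of these values in Nanog PGCLCs. Signals began to be called at between 6.87 and 7.16, depending on the array. All 12 genes of a core pluripotency list were detected on both Nanog PGCLC arrays. So were all 17 early germ cell genes, of 21 listed, that have a named probe in the deposited table. The counts were 11 and 17 in cytokine PGCLCs, and 11 and 13 in mESCs. One Nanog probe read 12.72 and 12.59 in Nanog PGCLCs, 10.93 and 10.79 in cytokine PGCLCs, and 11.48 and 11.55 in mESCs. The other read 12.04 and 12.24 in Nanog PGCLCs, 12.52 and 12.52 in cytokine PGCLCs, and 12.33 and 12.47 in mESCs, so the targeted gene's probes disagreed in order. In bulk RNA, fewer cells of a type and less RNA per cell cannot be told apart.

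The margins were small for most members. Their median was 0.33 on the authors' log2 scale, 41 of 71 reached 0.3 and 11 reached 0.5. Rassf5 had the widest margin, 0.97. Pced1a, Ube2e1 and Copz2 lay just inside the limit, with margins of 0.21, 0.21 and 0.21, and Gnb4, Nectin2 and Knstrn just outside it, with 0.199, 0.194 and 0.192. On 36 members the detection p-value was 0 on both Nanog PGCLC arrays, while 16 had at least 0.005 on one of them. A detection p-value below 0.05 was seen on at least 1 other array for 34 members. All 71 passed the filter on dim probes, which asks for detection on 2 arrays, and they passed it through the Nanog PGCLC arrays alone. Both Nanog PGCLC arrays lay above all the others in 71 of 71 members, against a background of 15.5% of all probes. The rule used this contrast, so nothing is read from it, and the differences from Nanog PGCLCs given for members below are descriptions with no test.

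**Figure D1:**
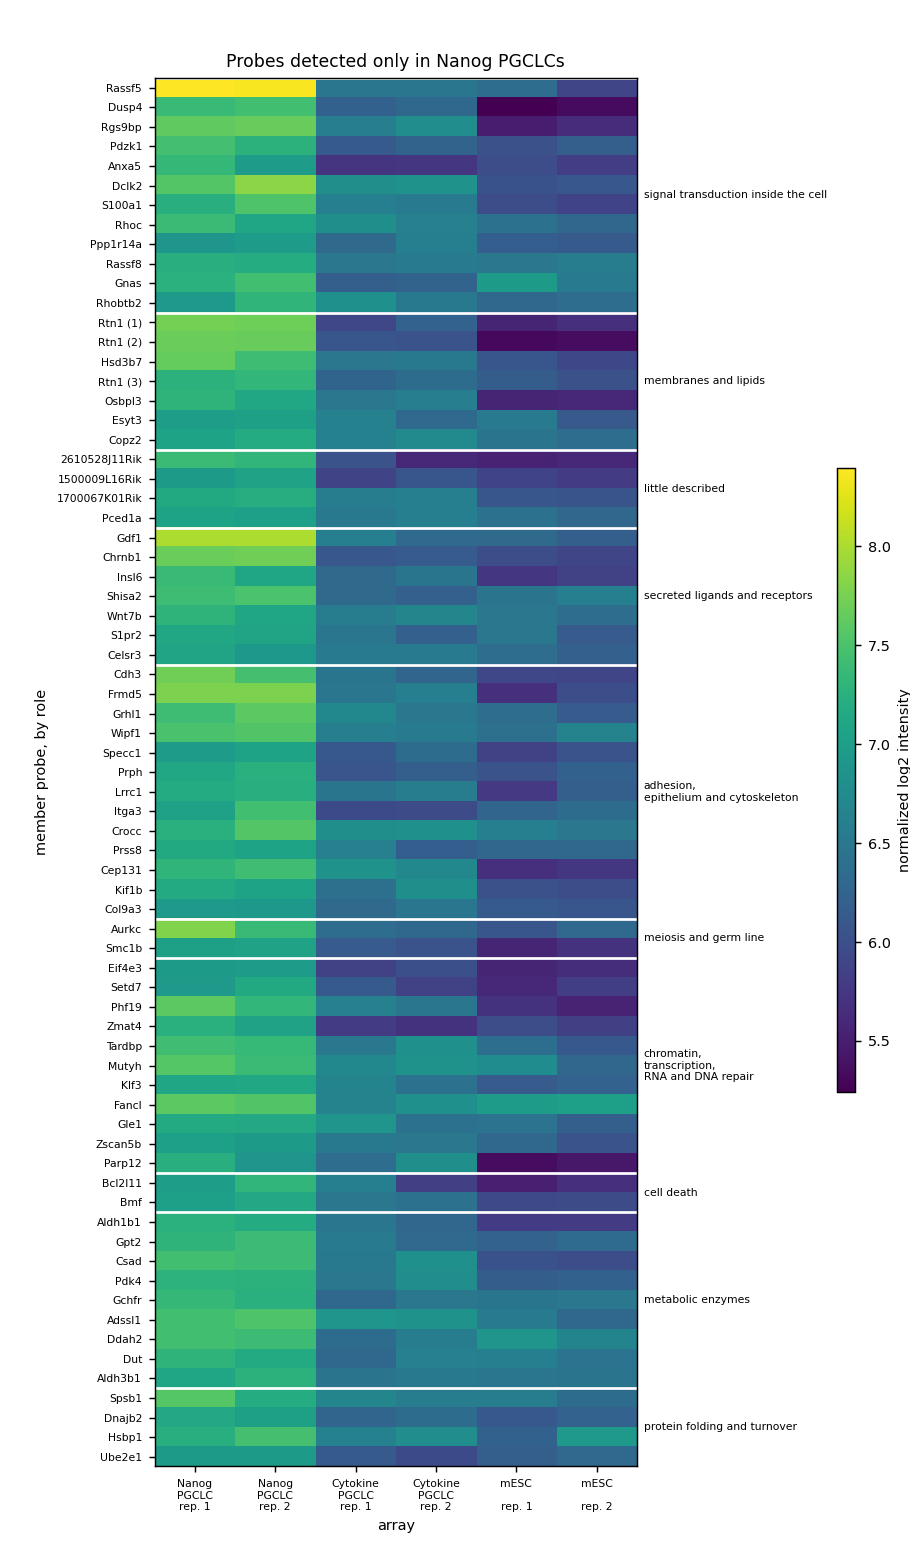
Normalized log2 intensity of the 71 member probes on the 6 arrays, grouped by the role of the gene. Columns are arrays (2 Nanog PGCLC, 2 cytokine PGCLC, 2 mESC), rows are probes, and the colour bar gives the level; the Nanog PGCLC columns are brightest in every row by the choice of members, and Rassf5 and Gdf1 are the brightest rows.

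Shown here are 5 members, from those that lead the list (Rassf5, Rtn1, Gdf1) and the pair grouped under meiosis and germ line (Aurkc, Smc1b). The 300 bases around an annotated start are given for each. They are RefSeq sequences of GRCm38.p6, from 250 bases before to 50 bases after a start site, 5′ to 3′ on the strand of the gene, in lower case with matches to the GC box GGGCGG on either strand in capitals. Rassf5 is at chr1:131200136-131200435 (minus strand), the third annotated start of Rtn1 at chr12:72236678-72236977 (minus strand), the first of Gdf1 at chr8:70315525-70315824 (plus strand), Aurkc at chr7:6995135-6995434 (plus strand) and Smc1b at chr15:85131908-85132207 (minus strand).
Rassf5: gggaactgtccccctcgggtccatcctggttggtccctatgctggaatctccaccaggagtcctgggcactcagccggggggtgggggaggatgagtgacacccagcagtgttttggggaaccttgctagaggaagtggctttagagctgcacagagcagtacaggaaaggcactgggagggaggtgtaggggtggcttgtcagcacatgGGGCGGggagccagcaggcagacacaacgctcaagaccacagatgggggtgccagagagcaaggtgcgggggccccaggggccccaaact
Rtn1: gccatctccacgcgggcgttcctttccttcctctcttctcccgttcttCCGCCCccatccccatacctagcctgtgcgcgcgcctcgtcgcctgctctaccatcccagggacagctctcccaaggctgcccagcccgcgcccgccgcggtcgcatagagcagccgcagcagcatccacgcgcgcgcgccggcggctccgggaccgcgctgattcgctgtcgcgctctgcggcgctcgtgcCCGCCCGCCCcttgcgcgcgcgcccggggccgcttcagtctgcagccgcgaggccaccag
Gdf1: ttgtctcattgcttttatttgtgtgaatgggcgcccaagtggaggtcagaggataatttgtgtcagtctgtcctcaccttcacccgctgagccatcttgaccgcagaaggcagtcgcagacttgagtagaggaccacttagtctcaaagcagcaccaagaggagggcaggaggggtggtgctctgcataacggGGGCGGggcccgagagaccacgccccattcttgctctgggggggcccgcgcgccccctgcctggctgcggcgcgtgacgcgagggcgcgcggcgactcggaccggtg
Aurkc: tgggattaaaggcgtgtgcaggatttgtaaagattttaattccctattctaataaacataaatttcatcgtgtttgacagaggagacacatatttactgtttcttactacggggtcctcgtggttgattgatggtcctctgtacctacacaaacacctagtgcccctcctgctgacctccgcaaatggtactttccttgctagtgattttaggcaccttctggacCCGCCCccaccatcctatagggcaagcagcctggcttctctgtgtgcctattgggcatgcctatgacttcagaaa
Smc1b: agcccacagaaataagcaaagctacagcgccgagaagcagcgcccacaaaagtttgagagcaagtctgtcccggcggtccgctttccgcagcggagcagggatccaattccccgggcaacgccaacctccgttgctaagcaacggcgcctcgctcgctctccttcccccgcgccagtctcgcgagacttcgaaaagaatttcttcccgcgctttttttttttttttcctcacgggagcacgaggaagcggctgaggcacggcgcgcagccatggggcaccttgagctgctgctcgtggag
Rtn1 has 3 annotated starts, whose windows hold 1, 0 and 3 matches, and the third is shown because it holds the most. The windows of Rassf5, Gdf1 and Aurkc hold 1 each, and that of Smc1b 0. Of the 69 member genes, 57 had a window in the table, and at the first listed start 45 of them, or 78.9%, held a GC box. The share was 66.3% among the 5988 genes of the array with a window and 35.9% among all 27025 genes. At one or more starts a GC box was found in 49 of 57 member genes, or 86.0%, against 70.3% of array genes and 38.2% of all genes. At the first listed start, the median G and C content was 62.3% for member genes and 61.0% for array genes. The homeodomain core TAATGG, searched on both strands, was found at one or more starts in 2 of 57 member genes, against 6.05% of array genes, and the E-box CACGTG in 2 of 57, against 12.5%. The octamer ATGCAAA was found in 1 of 57, against 4.11%. Above the array genes were the SOX core ACAATG, in 7 of 57 or 12.3%, against 8.60%, and the ESRRB site AAGGTCA, in 3 of 57 or 5.26%, against 3.81%. These counts describe letters in short windows, and say nothing of a factor's binding.

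Signalling proteins inside the cell made up 12 of the members, and the leading one was among them. Rassf5, a RAS and RAP effector that is known for its part in integrin activation in lymphocytes, read 8.40 and 8.36 in Nanog PGCLCs, 6.49 and 6.48 in cytokine PGCLCs, and 6.37 and 5.90 in mESCs. The Nanog PGCLC level was at least 2.81-fold that of cytokine PGCLCs and at least 2.42-fold that of mESCs. Such folds are lower bounds, since both other groups lie below detection: the undetected level is replaced, array by array, by the lowest signal among detected probes or the probe's own signal, whichever is higher. Dusp4, a nuclear phosphatase that inactivates ERK and other MAP kinases, read 7.38 and 7.44 in Nanog PGCLCs, 6.22 and 6.31 in cytokine PGCLCs, and 5.24 and 5.34 in mESCs. Rgs9bp, which anchors a regulator of G protein signalling to the membrane in the retina, read 7.62 and 7.66 in Nanog PGCLCs, 6.59 and 6.79 in cytokine PGCLCs, and 5.49 and 5.64 in mESCs. Dclk2, a doublecortin-like kinase that binds microtubules, read 7.56 and 7.85 in Nanog PGCLCs, 6.80 and 6.85 in cytokine PGCLCs, and 6.04 and 6.10 in mESCs. These 3 had the same order of groups, with cytokine PGCLCs between Nanog PGCLCs and mESCs, as did Rassf5. Both cytokine PGCLC arrays read above both mESC arrays in 45 of 71 members, with both groups below detection. Pdzk1, a scaffold protein of transporters, read 7.45 and 7.27 in Nanog PGCLCs, 6.13 and 6.25 in cytokine PGCLCs, and 6.02 and 6.20 in mESCs. Its cytokine PGCLC and mESC levels overlapped. The others were Anxa5, S100a1, Rhoc, Ppp1r14a, Rassf8, Gnas and Rhobtb2, whose bounds over cytokine PGCLCs ran from 1.03 to 1.39.

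Secreted ligands and receptors made up 7. Gdf1, a TGF beta family ligand that forms a dimer with Nodal in the early embryo, read 8.01 and 8.01 in Nanog PGCLCs, 6.61 and 6.33 in cytokine PGCLCs, and 6.34 and 6.20 in mESCs. That is at least 2.17-fold the cytokine PGCLC level and at least 1.87-fold the mESC level. Gdf1 shares a transcript with the ceramide synthase gene Cers1, so its reading is uncertain as a measure of the ligand alone. Chrnb1, the beta subunit of the muscle acetylcholine receptor, read 7.68 and 7.71 in Nanog PGCLCs, 6.10 and 6.14 in cytokine PGCLCs, and 5.99 and 5.91 in mESCs, a level at least 1.75-fold that of cytokine PGCLCs. Insl6, an insulin-like peptide of the testis, read 7.38 and 7.11 in Nanog PGCLCs, 6.33 and 6.47 in cytokine PGCLCs, and 5.74 and 5.85 in mESCs. Shisa2, Wnt7b, S1pr2 and Celsr3 complete the group. Wnt7b, a WNT ligand, was near the limit, with 7.30 and 7.09 in Nanog PGCLCs, 6.58 and 6.69 in cytokine PGCLCs, and 6.49 and 6.37 in mESCs.

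**Figure D2:**
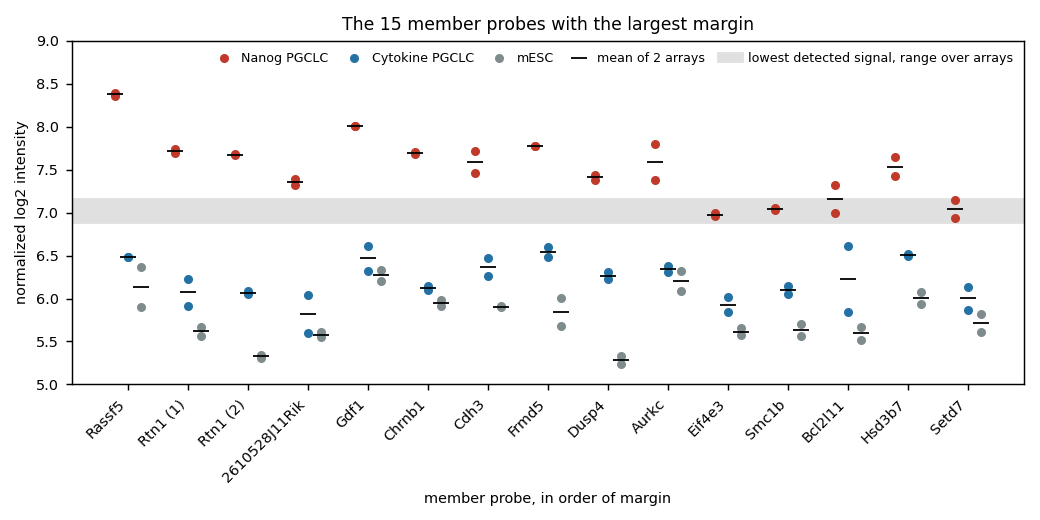
Normalized log2 intensity (vertical axis) of the 15 member probes with the largest margin, on each array (dots) with the mean of the 2 arrays of a group (black bars). The grey band is the range over arrays of the lowest detected signal; the other groups lie below it for all 15, and the Nanog PGCLC dots of Rassf5 and Gdf1 lie farthest above it.

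Proteins of membranes and lipid handling held the only gene with several member probes. Rtn1, a reticulon that shapes the endoplasmic reticulum and is known from neurons, was a member by 3 probes. The first read 7.74 and 7.69 in Nanog PGCLCs, 5.91 and 6.23 in cytokine PGCLCs, and 5.57 and 5.67 in mESCs. The second read 7.68 and 7.67 in Nanog PGCLCs, 6.08 and 6.05 in cytokine PGCLCs, and 5.31 and 5.34 in mESCs. The last read 7.27 and 7.33 in Nanog PGCLCs, 6.26 and 6.36 in cytokine PGCLCs, and 6.17 and 6.03 in mESCs. In the values normalized here all 3 put the groups in 1 order. In the authors' table the last probe had cytokine PGCLCs below mESCs, both undetected, with a difference of -0.07 that was not called. The bounds of the 3 probes over cytokine PGCLCs were 1.77-, 1.72- and 1.33-fold. Being probes to 1 gene on the same arrays, they are not independent. Hsd3b7, an enzyme of bile acid synthesis, read 7.64 and 7.42 in Nanog PGCLCs, 6.49 and 6.52 in cytokine PGCLCs, and 6.08 and 5.93 in mESCs. The remaining members of the group were Osbpl3, an oxysterol-binding protein, Esyt3, a tether of the endoplasmic reticulum to the plasma membrane, and Copz2, a subunit of the COPI vesicle coat.

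Adhesion, epithelial and cytoskeletal proteins were the largest group, with 13 members. Cdh3 encodes P-cadherin, a calcium-dependent adhesion protein of epithelia. It read 7.72 and 7.46 in Nanog PGCLCs, 6.47 and 6.27 in cytokine PGCLCs, and 5.91 and 5.90 in mESCs. Frmd5, a FERM domain protein found at cell junctions, read 7.78 and 7.78 in Nanog PGCLCs, 6.48 and 6.60 in cytokine PGCLCs, and a mean of 5.84 in mESCs. Grhl1, a grainyhead transcription factor of epithelia, read 7.41 and 7.60 in Nanog PGCLCs, 6.72 and 6.51 in cytokine PGCLCs, and 6.37 and 6.15 in mESCs. For these 3, the bounds over cytokine PGCLCs were 1.63, 1.85 and 1.54. The group also held Prss8, a membrane serine protease of epithelia, Itga3, an integrin subunit, Wipf1, Specc1, Prph, Lrrc1, Crocc, Cep131, Kif1b and Col9a3. Markers of surface ectoderm and epithelium, a list of 19 genes, were read beside this group. Of these genes, 9 have a named probe in the deposited table. Their summed intensity was 6583 to 7010 in Nanog PGCLCs, 4752 to 4825 in cytokine PGCLCs and 2905 to 3233 in mESCs. Detected on both arrays were 6 of the 9 in Nanog PGCLCs, 9 in cytokine PGCLCs and 3 in mESCs, and Krt14, Grhl3 and Ovol2 were the ones not detected on both Nanog PGCLC arrays. Between Nanog PGCLCs and cytokine PGCLCs 3 of the 9 were higher, 2 lower and 4 not called, with a median difference of 0.14. Across all genes tested, with 1 probe each, 10.6% were higher and 10.2% lower. Cldn6 differed by 1.84, Cldn4 by 1.43 and Krt8 by -1.24. Summed markers of blood and endothelium, where the embryonic globin genes were undetected in Nanog PGCLCs, gave 662 to 713 in Nanog PGCLCs, 2133 to 2164 in cytokine PGCLCs and 532 to 565 in mESCs. Neural ectoderm markers gave 1125 to 1158 in Nanog PGCLCs, 1012 to 1020 in cytokine PGCLCs and 2050 to 2056 in mESCs. The part of other cell types in the members' levels was not tested.

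The group of meiosis and germ line, as the roles were assigned here, held 2 members. Aurkc, an Aurora kinase of the meiotic chromosomal passenger complex, read 7.80 and 7.38 in Nanog PGCLCs, 6.37 and 6.31 in cytokine PGCLCs, and 6.08 and 6.32 in mESCs. Smc1b, the meiotic form of a cohesin subunit, read 7.03 and 7.06 in Nanog PGCLCs, 6.15 and 6.05 in cytokine PGCLCs, and 5.57 and 5.71 in mESCs. Aurkc reached at least 1.63-fold the cytokine PGCLC level, and Smc1b, which lies close to the detection limit, at least 1.12-fold. Cell death was represented by Bcl2l11 (BIM) and Bmf, both BH3-only proteins that start apoptosis by binding BCL2 relatives. Bcl2l11 read 6.99 and 7.32 in Nanog PGCLCs, 6.61 and 5.84 in cytokine PGCLCs, and 5.52 and 5.67 in mESCs. Its cytokine PGCLC arrays were far apart, and 1 of them came near the lower Nanog PGCLC array. Bmf read 7.03 and 7.15 in Nanog PGCLCs, 6.49 and 6.42 in cytokine PGCLCs, and 5.94 and 5.97 in mESCs.

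Chromatin, transcription, RNA and DNA repair had 11 members, with margins between 0.22 and 0.52. Eif4e3, a relative of the cap-binding factor eIF4E, read 6.96 and 6.99 in Nanog PGCLCs, 5.85 and 6.01 in cytokine PGCLCs, and 5.57 and 5.66 in mESCs. Setd7, a lysine methyltransferase, read 6.94 and 7.15 in Nanog PGCLCs, 6.13 and 5.87 in cytokine PGCLCs, and 5.61 and 5.82 in mESCs. Phf19, an accessory subunit of Polycomb repressive complex 2, read 7.60 and 7.33 in Nanog PGCLCs, 6.61 and 6.49 in cytokine PGCLCs, and 5.70 and 5.55 in mESCs. Of these 3, Phf19 had the highest bound, at least 1.49-fold the cytokine PGCLC level, while Eif4e3 and Setd7 reached at least 1.06- and 1.11-fold. The others were Zmat4, Tardbp, Mutyh, Klf3, Fancl, Gle1, Zscan5b and Parp12. Fancl, a ubiquitin ligase of the Fanconi anaemia pathway, had the highest mESC level of any member: it read 7.60 and 7.54 in Nanog PGCLCs, 6.65 and 6.83 in cytokine PGCLCs, and 6.98 and 7.03 in mESCs.

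Metabolic enzymes made up 9 members, with margins between 0.24 and 0.41. Aldh1b1, a mitochondrial aldehyde dehydrogenase, read 7.25 and 7.18 in Nanog PGCLCs, 6.48 and 6.28 in cytokine PGCLCs, and 5.79 and 5.80 in mESCs. Gpt2, the mitochondrial alanine transaminase, read 7.30 and 7.40 in Nanog PGCLCs, 6.56 and 6.32 in cytokine PGCLCs, and 6.24 and 6.34 in mESCs. Csad, an enzyme of taurine synthesis, read 7.44 and 7.40 in Nanog PGCLCs, 6.52 and 6.82 in cytokine PGCLCs, and 6.03 and 5.99 in mESCs. Their bounds over cytokine PGCLCs were 1.26, 1.38 and 1.44, and the remainder were Pdk4, Gchfr, Adssl1, Ddah2, Dut and Aldh3b1. Protein folding and turnover had 4 members, Spsb1, Dnajb2, Hsbp1 and Ube2e1, with no bound over cytokine PGCLCs above 1.41. The last 4 members were little-described genes. Among them 2610528J11Rik read 7.39 and 7.32 in Nanog PGCLCs, 6.05 and 5.60 in cytokine PGCLCs, and 5.55 and 5.61 in mESCs, a wide margin of 0.73.

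Over all members, the bound over cytokine PGCLCs ran from 1.03 to 2.81 with a median of 1.28, and the bound over mESCs was 1 or more for 55 of 71, with a highest value of 2.42. The measured difference between group means, Nanog PGCLCs minus cytokine PGCLCs, had a median of 0.83 log2 units, and Nanog PGCLCs minus mESCs one of 1.11. These are differences from levels below detection, so they describe the readings and are not folds. Both comparisons share the Nanog PGCLC arrays. Members with a similar distance to both other groups, such as Chrnb1 at 1.57 and 1.75, stood beside members far from mESCs and near cytokine PGCLCs, such as Parp12 at 0.46 and 1.65 and Osbpl3 at 0.67 and 1.64. Gnas and Itga3, named here after their values were seen, were nearer to mESCs, with 1.12 and 0.59 for Gnas and 1.28 and 0.93 for Itga3.

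**Figure D3:**
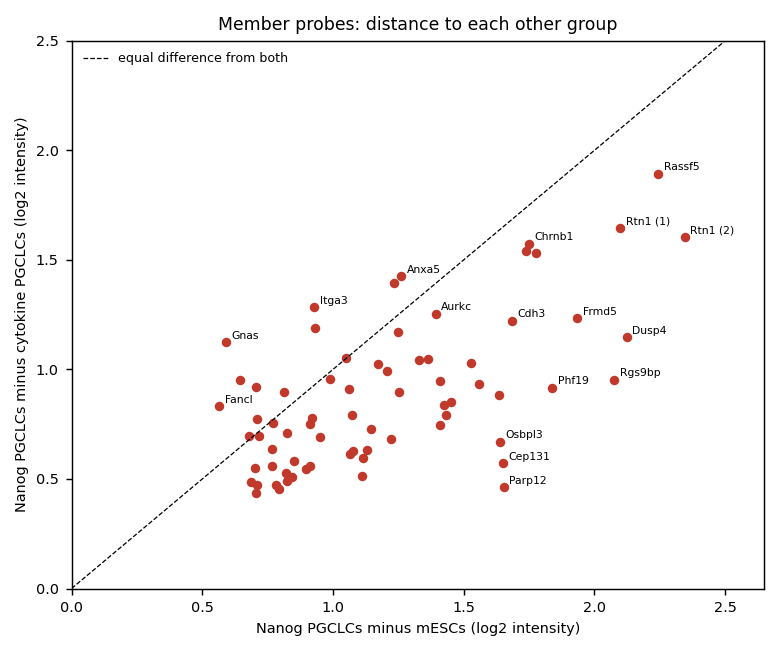
Difference of group means in normalized log2 intensity for each of the 71 member probes: Nanog PGCLCs minus mESCs (horizontal axis) and Nanog PGCLCs minus cytokine PGCLCs (vertical axis), with a dashed line where both are equal. Rassf5 and Rtn1 lie at the upper right, Parp12, Cep131 and Osbpl3 lie well below the line, and Gnas and Itga3 above it.

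The label "detected only in Nanog PGCLCs" was true of the probes but not of most genes with another probe in the deposited table. For 25 of the 69 genes the deposited table holds another probe, 34 in all, while 44 genes have none there. That table holds as many probes as were detected on at least 1 array, and each of the 34 was detected on at least 1. Other probes of member genes that were undetected on every array would be missing from it. The counts below therefore describe the listed probes, and cannot give the share of member genes read only in Nanog PGCLCs. In 23 of the 25 genes another probe was detected on at least 1 cytokine PGCLC or mESC array, and in 15 genes on all 4. Chrnb1 and Lrrc1 were the 2 genes whose other probe was detected on none of the 4. Of the 34 other probes, 30 were kept for testing. Those not kept include 1 of Fancl and 1 of Lrrc1 that were highest in Nanog PGCLCs. With them counted, the other probes were highest in Nanog PGCLCs for 24 of 34, against 27.8% of all probes kept for testing. As these probes report the genes the rule chose, in the same contrast and on the same arrays, no test is given.

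Aurkc was the clearest case. Its other probe read 10.15 and 10.29 in Nanog PGCLCs, 8.55 and 8.70 in cytokine PGCLCs, and 8.98 and 8.94 in mESCs, so it was detected on every array and 1.59 log2 units higher in Nanog PGCLCs than in cytokine PGCLCs. Both other probes of Pdzk1 were higher in Nanog PGCLCs, by 1.79 and 2.28 log2 units over cytokine PGCLCs and at least 5.71- and 5.50-fold over mESCs, where neither was detected. One of them read 9.71 and 9.53 in Nanog PGCLCs, 7.83 and 7.82 in cytokine PGCLCs, and 6.62 and 6.67 in mESCs. The other probe of Cdh3 read 8.68 and 8.76 in Nanog PGCLCs, 7.24 and 7.41 in cytokine PGCLCs, and 6.46 and 6.38 in mESCs.

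For 6 genes, Bcl2l11, Cdh3, Dusp4, Osbpl3, Pced1a and Pdzk1, another probe was detected on both cytokine PGCLC arrays and no other probe on an mESC array. In 5 of them, all but Pced1a, another probe was also detected on both Nanog PGCLC arrays. The other probe of Bcl2l11 read 9.03 and 9.04 in Nanog PGCLCs, 8.16 and 8.37 in cytokine PGCLCs, and 6.63 and 6.73 in mESCs. One other Dusp4 probe read 9.95 and 9.92 in Nanog PGCLCs, 9.21 and 9.33 in cytokine PGCLCs, and 6.50 and 6.26 in mESCs. Nanog PGCLCs exceeded cytokine PGCLCs by 0.76 log2 units for Bcl2l11 and 0.67 for this Dusp4 probe, and exceeded mESCs at least 3.81-fold and at least 7.12-fold.

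Not every gene kept its pattern. For 4 of the 25, Dut, Pced1a, Rhobtb2 and Setd7, no other probe was highest in Nanog PGCLCs. The other Dut probe, for the enzyme that removes dUTP, read 7.39 and 7.80 in Nanog PGCLCs, 7.37 and 7.29 in cytokine PGCLCs, and 7.98 and 8.05 in mESCs. The other Setd7 probe read 6.94 and 6.84 in Nanog PGCLCs, 6.75 and 6.86 in cytokine PGCLCs, and 7.26 and 7.28 in mESCs. In Fancl, Kif1b and Tardbp the other probes disagreed with each other. Where Wnt7b was read by its other probe, the groups overlapped: 7.42 and 7.33 in Nanog PGCLCs, 7.47 and 7.12 in cytokine PGCLCs, and 7.14 and 7.54 in mESCs.

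**Figure D4:**
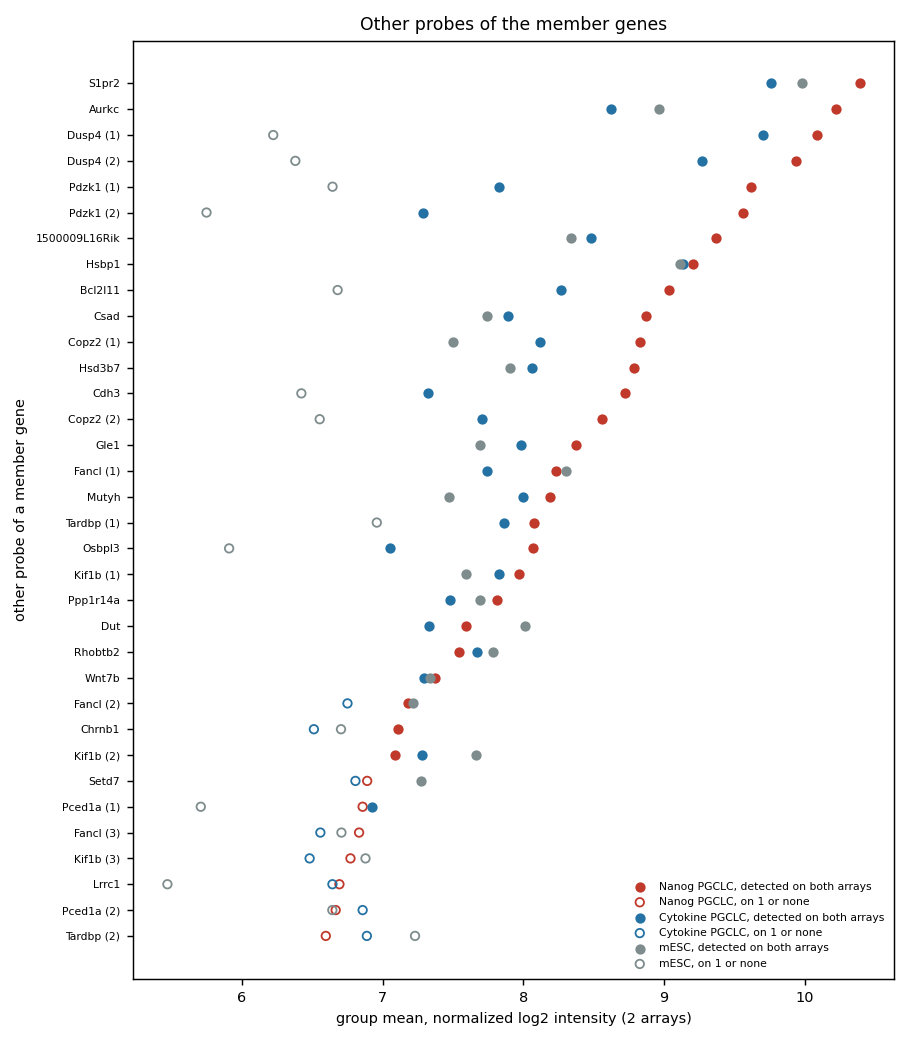
Group means in normalized log2 intensity (horizontal axis) of the 34 other probes of 25 member genes, with filled points where a probe was detected on both arrays of the group and open points where it was detected on 1 or none. Most cytokine PGCLC points are filled, and the Nanog PGCLC point is the highest for 24 of 34 probes.

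Between cytokine PGCLCs and mESCs the rule did not use the difference, but it held both groups below detection and capped their means. The members entered the fit through the Nanog PGCLC arrays alone, so the calls that follow are counts over readings below detection, and no change of a gene is read from them. In the values normalized here, 32 members had a higher reading in cytokine PGCLCs, 1 a lower one and 38 were not called (limma, adjusted p under 0.05), against 27.8% higher and 25% lower among all 10673 probes tested. The median member difference was 0.29 log2 units, and that of all probes 0.00. In the authors' deposited value table, fitted the same way, the counts were 8 higher, 8 lower and 55 not called, against 27.9% higher and 27.2% lower among all probes, and the median was -0.01. The direction of the median and the balance of calls therefore differ between the sets of values. The mESC arrays detect fewer probes, and the part of this in the counts was not tested.

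Members called the same way in both sets of values numbered 9: Parp12, Rgs9bp, Cep131, Dusp4, Osbpl3, Phf19, Dclk2 and 1 probe of Rtn1 on the cytokine PGCLC side, and Gnas on the mESC side. Both sets come from the same 6 arrays, so a shared call is not a second test. The share of all probes called alike in both sets is not given here. Readings are given as levels only. Parp12, a poly-ADP-ribose polymerase family member induced by interferon, read 6.37 and 6.81 in cytokine PGCLCs and 5.34 and 5.45 in mESCs. Cep131, a centrosome and cilium protein, read 6.87 and 6.72 in cytokine PGCLCs and 5.67 and 5.75 in mESCs. Gnas, the stimulatory G protein alpha subunit and the product of a complex imprinted locus, read 6.20 and 6.25 in cytokine PGCLCs and 6.96 and 6.56 in mESCs. None of these 3 was detected in either group.

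**Figure D5:**
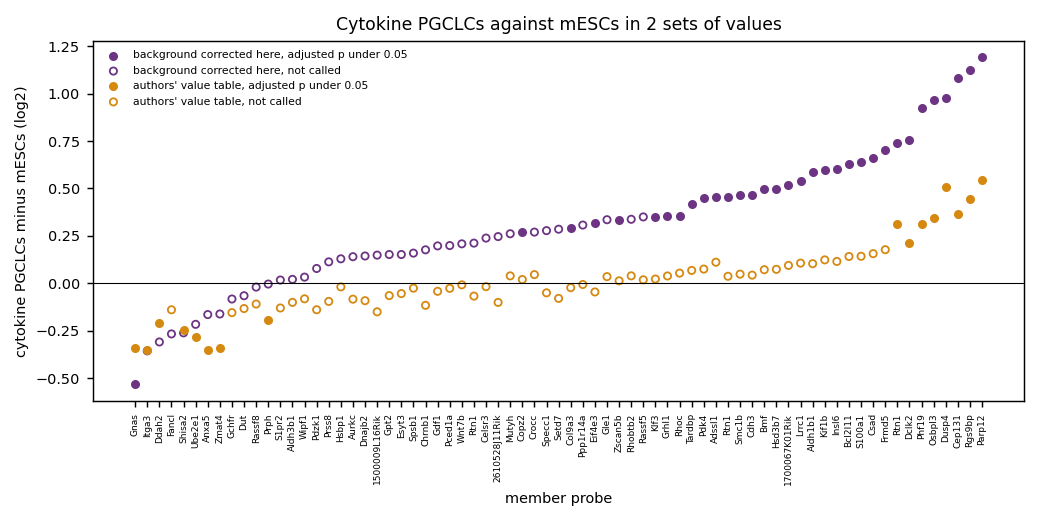
Difference of cytokine PGCLCs minus mESCs (vertical axis, log2) for each of the 71 member probes, in order, from the values normalized here (purple) and from the authors' value table (orange). All readings behind these points are below detection in both groups. Filled points passed an adjusted p of 0.05; 32 purple points are called above 0 and 1 below, and 8 orange points above and 8 below.

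Relatives of the members that are not members themselves were compared between Nanog PGCLCs and cytokine PGCLCs, a test the rule did not use for them. Across genes with 1 probe each, 10.6% of 6823 were higher and 10.2% lower. Among Nodal and GDF ligands and their pathway, 1 of 11 was higher, 1 lower and 9 not called, with a median difference of -0.18, against -0.01 over all probes tested. Lefty1, an inhibitor of Nodal that Nodal itself induces, read 12.05 and 12.02 in Nanog PGCLCs, against 9.86 and 9.84 in cytokine PGCLCs, a difference of 2.19 ± 0.09 (SE, limma adjusted p = 1.21e-05). Pcsk6, a convertase that cleaves the Nodal precursor, read 8.81 and 8.50 in Nanog PGCLCs, against 9.57 and 9.50 in cytokine PGCLCs, a difference of -0.88 ± 0.12 (SE, limma adjusted p = 0.00262). The wider list of primed epiblast and Nodal genes had 5 of 13 higher, 0 lower and a median of 0.31. Its tight junction gene Cldn6 read 9.46 and 9.19 in Nanog PGCLCs, against 7.27 and 7.71 in cytokine PGCLCs.

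In the BCL2 family, 3 of 7 tested relatives of Bcl2l11 and Bmf were higher in Nanog PGCLCs and 0 lower, with a median of 0.30. Bik, another BH3-only protein, read 8.34 and 8.26 in Nanog PGCLCs, against 7.17 and 7.24 in cytokine PGCLCs, a difference of 1.10 ± 0.11 (SE, limma adjusted p = 0.000638). Bok, a pro-apoptotic relative, differed by 0.61, and Mcl1, an anti-apoptotic one, by 0.48. Those last 2 calls were lost when single arrays were left out, with adjusted p-values up to 0.157 for Bok without cytokine PGCLC replicate 2 and up to 0.212 for Mcl1 without that same array. Among annexins and S100 proteins, relatives of Anxa5 and S100a1, 4 of 9 were higher and 0 lower, with a median of 0.35. Against mESCs the same 9 ran otherwise: 2 were higher in Nanog PGCLCs, 4 lower and 3 not called, with a median of -0.36. Anxa2 read 8.54 and 8.40 in Nanog PGCLCs, against 7.27 and 7.77 in cytokine PGCLCs, a difference of 0.95 ± 0.16 (SE, limma adjusted p = 0.00541). Anxa4, undetected in cytokine PGCLCs, was at least 1.43-fold higher, and S100a10 and Anxa6 differed by 0.47 and 0.47. All 3, Anxa4 first, lost their call without cytokine PGCLC replicate 1 (adjusted p = 0.0655, 0.0644 and 0.071) and without cytokine PGCLC replicate 2 (adjusted p = 0.0772, 0.0887 and 0.101).

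Other families had fewer calls, or calls in both directions. Of the G protein subunits 3 of 10 were higher and 1 lower, and each of those 4 lost its call when cytokine PGCLC replicate 1 was left out, with adjusted p-values between 0.0757 and 0.198. Of 6 WNT ligands and receptors 1 was higher and 2 lower. The receptor Fzd7 read 9.08 and 9.32 in Nanog PGCLCs, against 8.19 and 8.24 in cytokine PGCLCs, while Fzd10 read 8.22 and 8.05 in Nanog PGCLCs, against 10.04 and 9.87 in cytokine PGCLCs. Of 6 pyruvate dehydrogenase kinases and phosphatases, Pdk1 alone was called, with 10.19 and 10.14 in Nanog PGCLCs, against 9.21 and 9.24 in cytokine PGCLCs. Among 5 genes of the Aurora kinases and their complex, 3 reticulons and 3 integrins, 0 were called by limma in either direction; at an unadjusted p under 0.05 the counts were 0, 0 and 1. In the group of 6 cohesin subunits only Rec8, the meiotic kleisin, was called. It read 7.88 and 7.90 in Nanog PGCLCs, against 8.59 and 8.40 in cytokine PGCLCs, a difference of -0.60 ± 0.12 (SE, limma adjusted p = 0.0104). That call was lost without cytokine PGCLC replicate 1 (adjusted p = 0.0843), Nanog PGCLC replicate 1 (adjusted p = 0.0556) or Nanog PGCLC replicate 2 (adjusted p = 0.0515).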

How the data were processed

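Biotin-labelled cRNA of 6 samples was hybridised to Illumina bead arrays. The authors deposited, per the file headers, a table of non-normalized probe intensity with a detection p-value per probe and array. They also deposited a value table of 11542 probes, which the values show to be log2 with 1 set of quantiles. It was made with limma, per the submitters' processing notes, from an unstated background treatment (not given in the sources used here). Gene names came from GEO's platform annotation: 10057 probes have 1 symbol, 4 several and 1481 none.

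Here intensities were background corrected with limma 3.58.1 (R 4.3.3) by normexp, with the background estimated from detection p-values, an offset of 16 added, and quantile normalized on the log2 scale. The 10673 probes detected (p below 0.01) on at least 2 arrays were fitted over the 3 groups with lmFit and eBayes, and p-values adjusted by Benjamini-Hochberg over all of them at 0.05. The test is at the level of probes, because members are probes; for lists, the brightest kept probe stood for a gene. The number of arrays, 2 a group, limits the precision. The fitting code was tested on simulated data. A first simulation, with noise drawn from each probe's residual SD, fell short of the recovery set for it, and the test passed after the noise was drawn from limma's moderated SD instead. The fit itself was not changed.

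The members, lists and named genes were chosen with earlier results of these data known, and role groups and families after the members were seen. Named genes are the 15 largest margins, the 3 largest in each role, the 3 on each side of the limit, up to 10 members called in cytokine PGCLCs against mESCs, members with another probe, and up to 4 non-members per list; other members are named for completeness. Replicate numbers do not pair the samples, since deviations of same-numbered arrays from their group means correlated at 0.03, 0.08 and 0.00. Alternatives covered background, offset, normalization, filter, variance trend, array brightness, the rule's limits and each array left out.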

Additional observations from a re-analysis of the deposited data

Results flagged for a closer look

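Outside the named probes, 10 probes with no gene symbol met the same limits in Nanog PGCLCs, a signal above detection in these cells. They are in the fit over all probes, but with no gene name they are not among the members. The same count was 18 in cytokine PGCLCs and 23 in mESCs. The brightest of the 10, ILMN_1218890, read 8.17 and 7.87 in Nanog PGCLCs, 6.33 and 6.81 in cytokine PGCLCs, and 5.95 and 6.06 in mESCs. No gene is assigned to it here.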

How the results depend on the processing

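How many probes count as members depends on the limits: 37 with a detection p-value of at least 0.05 on the other 4 arrays, 128 with a margin of 0, 11 with 0.5, 0 with 1, and 115 with margins from the values normalized here, against 71. In the authors' values, 16 members were called between cytokine PGCLCs and mESCs, where all are below detection, against 33. Of those 33, Eif4e3 and Col9a3 changed sign, to -0.045 and -0.023. Members not called here changed sign as well, among them Gdf1, from 0.197 to -0.042, and Chrnb1, from 0.177 to -0.116. The cause was not tested. The median member difference, Nanog PGCLCs minus cytokine PGCLCs, was 0.33 with no background correction, 0.64 with an offset of 50 and 0.41 in the authors' table, against 0.83. For Nanog PGCLCs minus mESCs it was 0.46, 0.82 and 0.38, and 1.24 with median scaling, against 1.11. Median scaling moved the median of all probes for cytokine PGCLCs minus mESCs to 0.15. Of all probes, 2157 were called between Nanog PGCLCs and cytokine PGCLCs, 1425 with no filter, where more probes are tested, and 789 to 2178 when 1 array was left out (789 and 899 without cytokine PGCLC replicates 1 and 2, 1216 and 1091 without those of Nanog PGCLCs), with a lone array assumed to vary like the other groups. With the replicate number as a block, 2084 were called and 33 members between cytokine PGCLCs and mESCs. Under every alternative, 8 of 33 member calls and 37 of 76 list gene calls were kept. Members sit at the detection limit, so their levels in the other groups are bounds.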

Other observations

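Gene groups without members were compared between Nanog PGCLCs and cytokine PGCLCs as well. They did not all differ: of 12 tested p53 targets, 0 were higher in Nanog PGCLCs and 1 lower. Of 9 tested BMP and SMAD response genes, 6 were lower in Nanog PGCLCs than in cytokine PGCLCs and 1 higher. Id1, a target of BMP signalling, was detected on no Nanog PGCLC array and reached at least 9.99-fold that level in cytokine PGCLCs, the group given BMP4 and BMP8A. Of 15 hypoxia and glycolysis genes, 4 were higher in Nanog PGCLCs and 3 lower, against 10.6% higher and 10.2% lower across all genes tested. Vegfa, a growth factor of blood vessels, read 8.07 and 8.11 in Nanog PGCLCs, against 7.23 and 7.08 in cytokine PGCLCs, a difference of 0.94 ± 0.16 (SE, limma adjusted p = 0.00573), and its call was lost without cytokine PGCLC replicate 2 (adjusted p = 0.0564).

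Bhlhe40, left out of the members by its symbol, had a margin of 1.33, above that of Rassf5. In the RefSeq gene order, 3 pairs of members lie near each other: Smc1b and Wnt7b with 4 protein-coding genes between them, Tardbp and Kif1b with 7, and Hsd3b7 and Prss8 with 8.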
